A study of Schizosaccharomyces pombe with 6 samples.

Results

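The genes described here encode the proteins of the cytosolic ribosome of fission yeast, Schizosaccharomyces pombe. They were picked by symbol: names starting with rpl or rps and a digit, or with rpp0, rpp1 or rpp2, on chromosome I up to position 3700000 and on chromosomes II and III. The rule found 122 of the 4346 coding genes there, and 120 of them are annotated as ribosomal proteins. Of these 120, 66 belong to the large subunit (rpl), 48 to the small subunit (rps) and 6 to the stalk (rpp0, rpp101, rpp102, rpp103, rpp201 and rpp202). The other 2, rpp1 and rpp21, are annotated as subunits of RNase P or RNase MRP and were kept apart.

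A ribosome is made of ribosomal RNA and one copy of most of these proteins, while the acidic P1 and P2 proteins sit as dimers on P0 and form the stalk that receives the translation factors. Ribosomal protein genes are among the most heavily transcribed genes of growing yeast, and many exist as a pair of nearly identical copies. In fission yeast their promoters often carry the HomolD box, which takes the place of a TATA box, and the HomolE box. Rad52 (Rad22 in the older fission yeast literature) is a protein of homologous recombination that acts on single-stranded DNA, and Rad3 is the checkpoint kinase related to human ATR.

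Rad52 chromatin immunoprecipitation (ChIP) was hybridised to 2-colour Agilent tiling arrays, with 3 arrays labelled Δrad3, a strain lacking the checkpoint kinase gene rad3, and 3 labelled WT. Both strains carried the temperature-sensitive cdc25-22 allele, were held at 36.5 °C for 4 h to block them before mitosis, released at 25 °C with 6 mM hydroxyurea (HU), and harvested 60 min after release. Each array carried input DNA in the 647 channel and IP DNA in the 555 channel, and every value below is log2 IP/input with the array's median probe at 0, so a value is relative to the genome and not an absolute occupancy. The question the labels imply is where Rad52 lies in early S phase and whether this differs without Rad3.

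No mock IP was used here, and nothing in the labels says that the 3 arrays of a strain are separate cultures, so the p-values cover array-to-array spread only, which may be technical. The array labelled WT replicate 2 does not match its label: 24 of the 33 probes in rad3 were not well above background in its input, against 9 of 33 on each Δrad3 array and 0 of 33 on WT arrays 1 and 3. It was kept where the labels put it. The counts of genes and downstream segments called in WT, and the mean gap between the strains, are given with and without it. Other WT values and counts include it unless stated. All arrays have the same dye orientation in the labels, so dye bias was not balanced within a strain. The series' design text speaks of reciprocal labelling, which if it meant swapped dyes on some arrays would turn their sign. Gene values of all pairs of arrays correlated above 0, at 0.12 or more, and the labels' orientation was used for every array. Each slide held the Δrad3 and WT arrays with one number, scanned on one day, and the fit with the slide as a block is given where it moves a count. WT arrays 1 and 2 carry a chromatin protocol in their labels, naming an anti-Rad52 antibody and a fragment size of 400 to 500 bp, while WT array 3 and the Δrad3 arrays carry an RNA extraction text and HU addition 10 min after release. Median input signal was 6.53 to 12.89 times the local background on the Δrad3 arrays and 5.04 to 20.01 times on the WT arrays, lowest on slide 3 in both strains.

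Ribosomal protein genes are short, with a median length of 686 bp against 1810 bp for the other coding genes, and less A+T-rich (57.4% against 63.3%). With probes about 265 bp apart, 119 of the 120 genes had at least 1 probe: 16 had 1 probe, 82 had 2 or 3 and 21 had 4 or more. The gene without a probe is rpl1201. Of the 120, 73 have a second coding gene whose protein is at least 90% identical, and the coding sequence was a median 87.9% identical to the closest copy in the 90 genes with any copy. Cross-hybridisation between copies was not tested.

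Sequences next to 4 genes are shown because the results turn on the flanks: rps2, rpp103 and rpl35A01 had the highest WT values in the 500 bp after the gene, and rpl1101 had the lowest. They are from RefSeq ASM294v3, along the gene, without bases of a neighbouring coding gene. The promoters follow, read up to the base before the annotated start, with capitals for the HomolD box CAGTCACA and the HomolE core CCCTACCC on either strand. They lie at chrIII:2096037-2096186 (rps2), chrIII:2408327-2408476 (rpp103), chrIII:540803-540952 (rpl35A01) and chrI:3346886-3347003 (rpl1101), all on the minus strand.
rps2 promoter: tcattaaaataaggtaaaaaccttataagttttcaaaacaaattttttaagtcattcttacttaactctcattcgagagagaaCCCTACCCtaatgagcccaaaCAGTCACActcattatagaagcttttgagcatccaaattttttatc
rpp103 promoter: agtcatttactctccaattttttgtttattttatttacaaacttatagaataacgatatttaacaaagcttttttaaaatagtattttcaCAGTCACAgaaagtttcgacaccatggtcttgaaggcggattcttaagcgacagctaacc
rpl35A01 promoter: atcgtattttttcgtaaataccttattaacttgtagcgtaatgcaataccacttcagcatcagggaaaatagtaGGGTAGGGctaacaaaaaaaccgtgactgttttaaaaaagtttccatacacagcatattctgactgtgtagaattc
rpl1101 promoter: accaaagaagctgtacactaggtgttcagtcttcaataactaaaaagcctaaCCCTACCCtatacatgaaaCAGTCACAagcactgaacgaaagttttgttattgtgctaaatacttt
The HomolD box was found in 76 of 120 promoters (63.3%), taken as 250 bases before the start and the first 50 bases of the gene, against 2.65% of all 4346 coding genes. The HomolE core was found in 45 (37.5%), against 1.70% of all, and TATAAA in 31 (25.8%), against 48.4% of all. Both strands were read and the motifs were counted independently, so a promoter can hold several. The first base of the HomolD box lay at a median position of −51.5 bases relative to the annotated start.

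The flanks after 3 of these genes follow, beginning with the first base past the annotated end, with capitals for runs of at least 5 T. They lie at chrIII:2094885-2095134 (rps2), chrIII:2407615-2407721 (rpp103) and chrI:3345821-3346067 (rpl1101), all on the minus strand.
rps2 downstream: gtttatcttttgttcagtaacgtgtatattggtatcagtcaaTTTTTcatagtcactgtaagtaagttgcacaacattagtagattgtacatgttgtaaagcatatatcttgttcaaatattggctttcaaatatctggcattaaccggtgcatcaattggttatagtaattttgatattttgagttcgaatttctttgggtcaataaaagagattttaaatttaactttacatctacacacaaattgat
rpp103 downstream: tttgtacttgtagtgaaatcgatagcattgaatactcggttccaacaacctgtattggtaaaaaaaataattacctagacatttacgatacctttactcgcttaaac
rpl1101 downstream: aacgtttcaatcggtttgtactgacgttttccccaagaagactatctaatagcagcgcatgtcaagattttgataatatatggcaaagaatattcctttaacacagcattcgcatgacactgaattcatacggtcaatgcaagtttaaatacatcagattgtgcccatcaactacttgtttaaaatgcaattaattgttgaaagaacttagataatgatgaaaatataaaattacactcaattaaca
The flank of rps2 holds such a run and those of rpp103 and rpl1101 as shown do not. In the first 150 bases past the end, a run of 5 T was found after 67 of 120 ribosomal protein genes (55.8%) and after 51.2% of all coding genes. The median A+T content of these 150 bases was 69.3% for ribosomal protein genes and 70% for all coding genes, both close to the values over all genes.

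Rad52 IP/input over ribosomal protein genes was highest just past the 3′ end, in both strains. Averaged over probes from the annotated end to 200 bp beyond it, the log2 value came to 0.39, 0.29 and 0.14 on the Δrad3 arrays and 0.63, 0.73 and 0.38 on the WT arrays. Every array was above 0, and the 2 strains overlapped only in that Δrad3 array 1 lay just above WT array 3. Over the other coding genes the same 200 bp averaged 0.21, 0.13 and 0.07 on the Δrad3 arrays and 0.17, 0.17 and 0.13 on the WT arrays, a lower peak at the same place. The rise was narrow: from 600 to 800 bp past the end the ribosomal protein genes averaged −0.07, −0.03 and −0.08 on the Δrad3 arrays and 0.00, 0.02 and −0.01 on the WT arrays. In the 200 bp before the annotated start, which hold most HomolD boxes, values were −0.09, −0.07 and −0.29 on the Δrad3 arrays and −0.17, 0.10 and −0.22 on the WT arrays, so 5 of 6 arrays were below their median there.

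**Figure D1:**
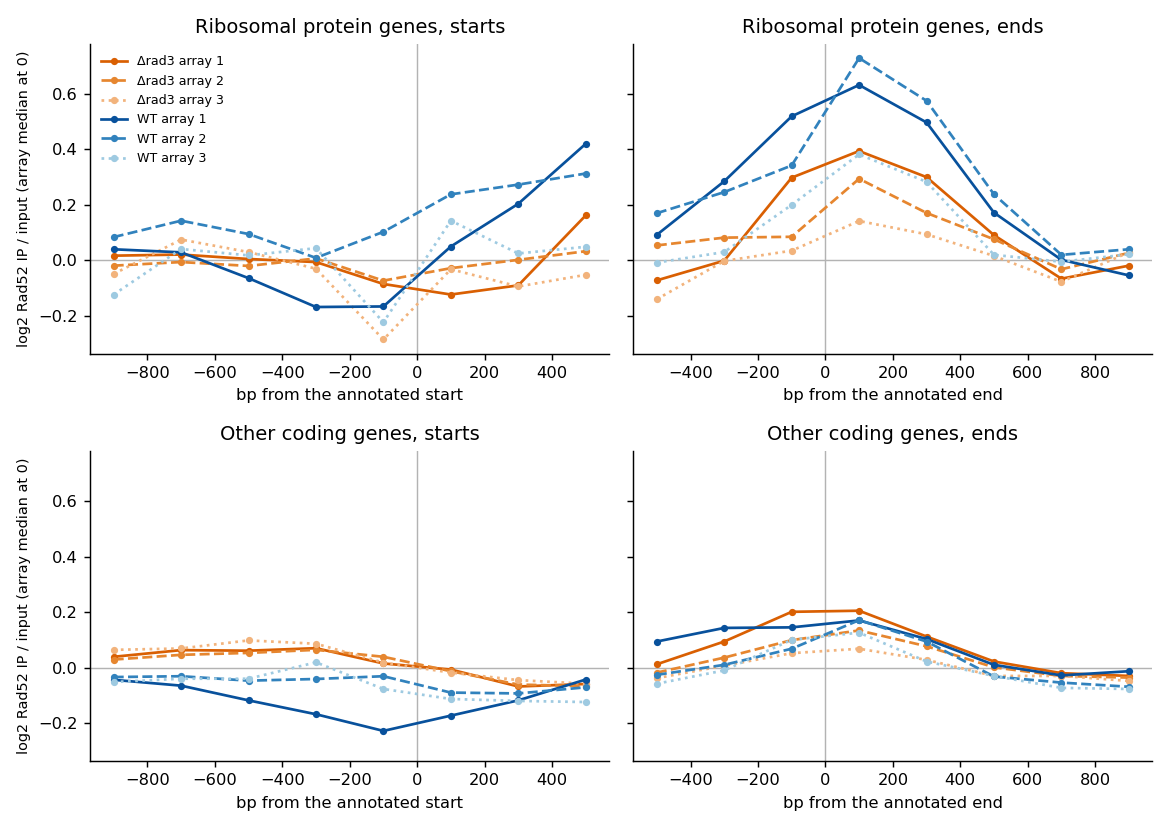
Mean log2 Rad52 IP/input (vertical axis, array median at 0) in steps of 200 bp around the annotated starts (left) and ends (right) of ribosomal protein genes (top) and other coding genes (bottom). Each line is 1 array, orange for Δrad3 and blue for WT. Past the ends of ribosomal protein genes, the Δrad3 lines peak at 0.14 to 0.39 and the WT lines at 0.38 to 0.73.

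By segment of the gene, the members' medians were higher on the 3′ side than on the 5′ side. Each gene was divided into 3 equal parts by probe position, with 500 bp on either side. The median over the 119 genes measured in the 500 bp downstream was 0.22 in Δrad3 and 0.51 in WT, with 95 genes above 0 in Δrad3 and 111 in WT. Of 4153 other coding genes, 2431 were above 0 there in Δrad3 and 2385 in WT. The medians over other coding genes were 0.06 in Δrad3 and 0.08 in WT. The members' Δrad3 median was 0.12 without Δrad3 array 1 and 0.09 with a regression on the A+T content of the probes, and their WT median was 0.24 with normexp background correction. Inside the genes the level was lower towards the start. In the 3′ part (87 genes with a probe) the median was 0.16 in Δrad3 and 0.37 in WT. In the 5′ part (73 genes) it was −0.06 in Δrad3 and 0.08 in WT, and in the middle part (81 genes) −0.06 in Δrad3 and 0.17 in WT. The promoter side showed no raised level in either strain, with a median over the 500 bp upstream (120 genes) of −0.06 in Δrad3 and −0.08 in WT, against 0.02 in Δrad3 and −0.09 in WT over the other coding genes.

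**Figure D2:**
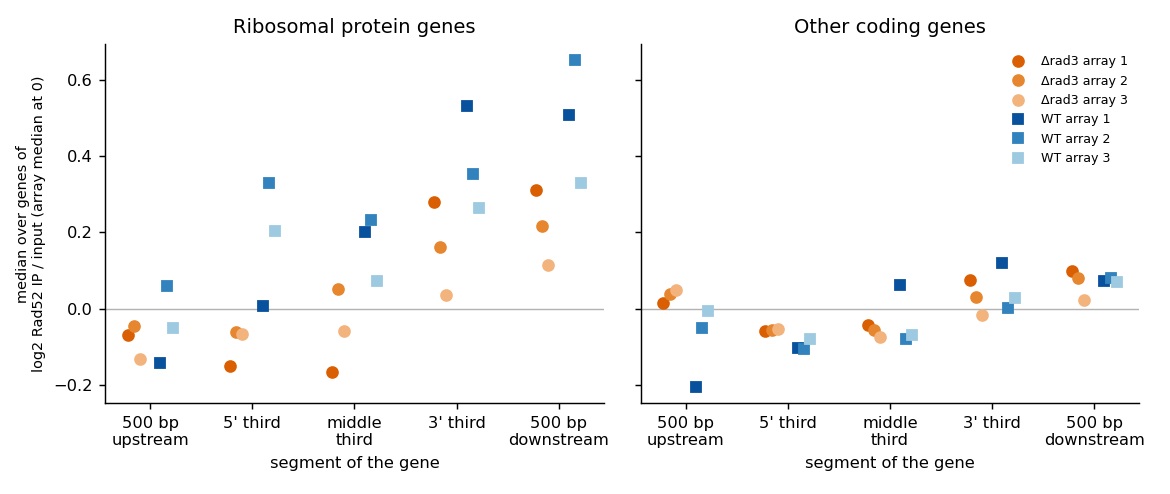
Median over genes of log2 IP/input (vertical axis) in 5 segments, for each array, with Δrad3 arrays as orange circles left of WT arrays as blue squares. Ribosomal protein genes (left panel) reach 0.11 to 0.31 on the Δrad3 arrays and 0.33 to 0.65 on the WT arrays downstream, while the other coding genes (right panel) stay between 0.02 and 0.10.

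A segment or gene was called enriched at a mean log2 of at least 0.5 and a Benjamini-Hochberg adjusted p under 0.05 from limma, adjusted over all segments or all coding genes. Downstream of ribosomal protein genes, 0 of 119 segments were called in Δrad3 (background of all coding genes 0.609%) and 22 in WT (18.5%, against a background of 5.17%). At the same mean and an unadjusted p under 0.05, 16 of these 119 segments passed in Δrad3 (background 8.97%). With the slide as a block the calls were 4 in Δrad3 (background 4.33%) and 54 in WT (background 12%), and all 22 genes called without it were among the 54. With the block and without the array labelled WT replicate 2, 14 were called in Δrad3 (background 7.94%) and 5 in WT (background 2.69%), so the order of the strains in this count turned round. Without the array labelled WT replicate 2, 2 downstream segments were called in WT (background 0.609%), those of rps2 and rpl35A01. With a trended and robust variance estimate, or with normexp background correction, 0 were called in WT. In the 3′ part, 1 of 87 genes was called in Δrad3 (rps2202, background 0.221%) and 6 in WT (background 2.53%). Over all 480 segments of ribosomal protein genes, 1 was called in Δrad3 (0.208%, background 0.368%) and 31 in WT (6.46%, background 2.07%). The WT calls were 22 downstream, 6 in the 3′ part, 2 upstream and 1 in the 5′ part.

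The highest downstream value was at rps2, whose product uS5 lies at the mRNA entry channel of the small subunit. Its downstream probe, centred 175.5 bp past the end, read 0.86, 0.83 and −0.06 on the Δrad3 arrays and 1.60, 1.86 and 1.51 on the WT arrays. All Δrad3 arrays lay below all WT arrays. The WT mean was 1.66 ± 0.19 (SD, n = 3 arrays; limma adjusted p = 0.00432) and the Δrad3 mean 0.54 ± 0.52, a difference of −1.11 that was not called (limma adjusted p = 0.621). Along rps2 the probe values were negative at the start on 5 of 6 arrays and higher towards the end, and the next probe, 542 bp past the end, read 0.10, −0.42 and −0.998 on the Δrad3 arrays and 0.26, 0.17 and 0.05 on the WT arrays.

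After rpl35A01, which encodes eL33 of the large subunit, the downstream probe read 0.42, 0.66 and 0.22 on the Δrad3 arrays and 1.10, 1.27 and 1.37 on the WT arrays. Again the strains did not overlap, but the difference of −0.81 was not called (limma adjusted p = 0.707). The downstream segments of rps2 and rpl35A01 were picked by their high WT values, so their lower Δrad3 values say nothing further about the strains. The elongation factor gene eft202 converges on rpl35A01, with its annotated end 284 bp away, so the probe lies on the 3′ side of both genes. The copy rpl35A02, 88.9% identical in protein, was below 0 over its gene on every array, at −0.14, −0.22 and −0.58 on the Δrad3 arrays and −0.02, −0.60 and −0.13 on the WT arrays.

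The 3′ part of rps2202, for uS8 of the small subunit, was the only segment called in Δrad3. It read 1.31, 0.87 and 0.87 on the Δrad3 arrays and 1.08, 1.04 and 1.49 on the WT arrays, from 1 probe. The 2 strains overlapped, since Δrad3 array 1 lay above WT arrays 1 and 2, with means of 1.01 in Δrad3 (limma adjusted p = 0.0372) and 1.20 in WT (limma adjusted p = 0.00965). The end of rps2202 overlaps the end of the convergent gene mug165 in the annotation.

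Among genes picked out after their values were seen, the downstream segment of rpl1802 (eL18) read 1.29, 0.45 and 0.08 on the Δrad3 arrays and 1.22, 1.30 and 0.82 on the WT arrays. The next coding gene on that side lies 4627 bp away. The downstream segment of rps1601 (uS9) read 0.32, −0.31 and −0.04 on the Δrad3 arrays and 0.96, 1.31 and 0.66 on the WT arrays, with no overlap and a difference of −0.98 (limma adjusted p = 0.621). The WT calls away from the 3′ side were 3. One was the 5′ part of rpl3802 (eL38), with 0.34, 0.60 and 0.65 on the Δrad3 arrays and 0.55, 0.94 and 1.13 on the WT arrays. The others were upstream of rpl2302 (uL14), with 0.69, 0.66 and 0.12 on the Δrad3 arrays and 1.12, 1.66 and 1.07 on the WT arrays, and upstream of rps27. The rps27 call is from the same probe as the downstream call of rps29, so it counts for both.

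**Figure D3:**
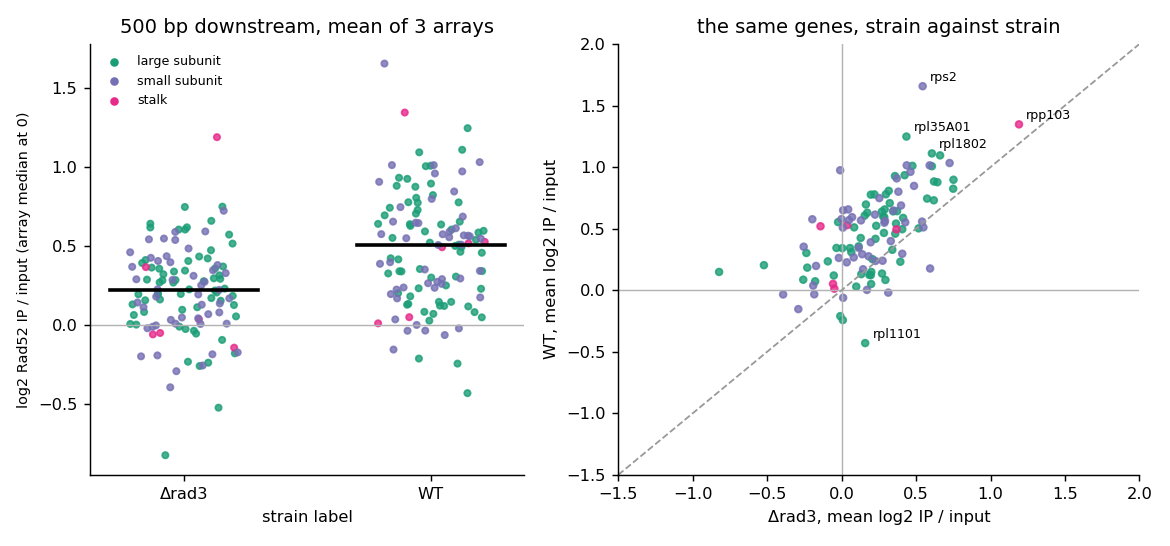
Mean of 3 arrays of log2 IP/input in the 500 bp downstream of each ribosomal protein gene, for Δrad3 left of WT (left panel, bars are medians of 0.22 in Δrad3 and 0.51 in WT, horizontal scatter has no meaning), and the same values with Δrad3 on the horizontal and WT on the vertical axis (right panel, dashed line at equal values). Colours mark the subunit, and 98 of 119 genes were lower in Δrad3 (2210 of 4153 among other coding genes).

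**Figure D4:**
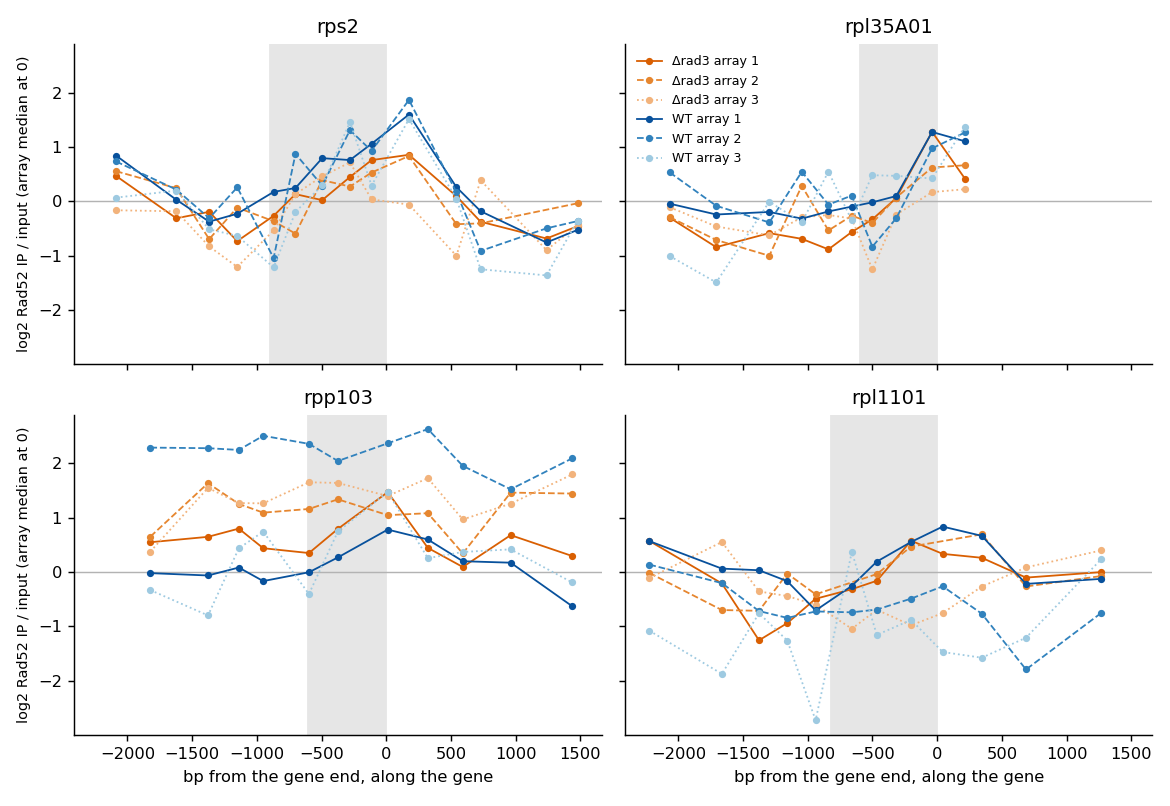
Log2 IP/input of single probes (vertical axis) by distance from the gene end along the gene in bp (horizontal axis) for the 4 genes whose sequences are shown, with the gene in grey and each array as a line (orange Δrad3, blue WT). At rps2 the probe 175.5 bp past the end is the highest on 5 of 6 arrays, rpp103 is raised over the whole stretch on the array labelled WT replicate 2 and on the Δrad3 arrays, and rpl1101 has no common peak.

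Within single genes, 56 members had probes in both the 5′ and the 3′ part. The 3′ part exceeded the 5′ part in 43 of these 56 and in 2641 of 3848 other coding genes. The median difference was 0.28 log2 units over both strains, against 0.12 for the other coding genes. Per array the median difference came to 0.57, 0.19 and 0.13 on the Δrad3 arrays and 0.46, 0.11 and −0.01 on the WT arrays, highest on the 2 arrays of slide 1. Over other coding genes it came to 0.141, 0.085 and 0.041 on the Δrad3 arrays and 0.224, 0.089 and 0.115 on the WT arrays. Members stood below the others on WT array 3 only. Without Δrad3 array 1 the median difference was 0.12 over members and 0.11 over other coding genes, so the size of the members' excess depended on that array. With at least 2 probes in each part, 5 members were left, with a median of 0.10 against 0.12 for the others. The 3′ part was called higher in 3 genes (background 1.54%) and lower in 0 (background 0.128%; at an unadjusted p under 0.05 in limma, rpl3402 passed). With the slide as a block, 8 genes were called higher (background 5.64%), and with any 1 array left out 0 to 2 were.

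The 3 genes were rps2, rpl35A01 and rpp102, one of the genes for the stalk protein P1. In rpp102 the 3′ part exceeded the 5′ part by 1.05, 0.75 and 1.35 on the Δrad3 arrays and by 0.52, 0.41 and 0.88 on the WT arrays (mean 0.83, limma adjusted p = 0.0295). In rps2 the excess came to 0.67, 0.88 and 0.58 on the Δrad3 arrays and 0.70, 1.20 and 1.58 on the WT arrays. All 6 arrays had the same sign in both genes. In rpl35A01 it came to 1.61, 1.02 and 1.42 on the Δrad3 arrays and 1.29, 1.81 and −0.06 on the WT arrays, with WT array 3 apart from the rest. No gene's 3′ minus 5′ difference was called as unlike between the strains, and in limma 0 of the 56 members reached an unadjusted p under 0.05 for it.

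Averaged over whole genes, the members lay near the genome median in Δrad3 and above it in WT. The median over 119 genes was 0.01 in Δrad3 (62 above 0) and 0.24 in WT (92 above 0). Over the 4161 other coding genes tested it was −0.03 in Δrad3 (1795 above 0) and −0.04 in WT (1898 above 0). In Δrad3, 0 genes were called enriched (background 0.0234%, with 1 member, rpp103, at the same mean and an unadjusted p under 0.05, background 2.57%), and in WT 7 (5.88%, background 1.5%). With the slide as a block, 1 was called in Δrad3 (background 1.29%) and 19 in WT (background 4.46%), with the same 7 among them. Without the array labelled WT replicate 2, rpl1001 and rps2202 alone were called in WT (background 0.234%). With a trended and robust variance estimate 0 were called in either strain, and with normexp 0 were called in WT.

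The highest WT gene value among the 7 was that of rpl1001, for uL16 (L10), which joins the large subunit late in its assembly. Its single probe read 0.32, 0.26 and −0.01 on the Δrad3 arrays and 0.94, 1.01 and 0.76 on the WT arrays (WT limma adjusted p = 0.0117). The strains did not overlap, with a difference of −0.71 ± 0.17 (SE; limma adjusted p = 0.74). Over rps2202 the mean of 3 probes came to 0.51, 0.57 and 0.38 on the Δrad3 arrays and 0.72, 0.73 and 0.96 on the WT arrays (WT limma adjusted p = 0.0137). Its copy rps2201, with an identical protein, read 0.40, 0.33 and 0.10 on the Δrad3 arrays and 0.30, −0.10 and −0.26 on the WT arrays. The 2 copies thus stood 0.82 apart in WT, the widest gap among the 45 measured pairs.

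Genes for 2 proteins of the peptide exit tunnel were among the 7. The gene rpl402, for uL4, read 0.21, 0.17 and 0.00 on the Δrad3 arrays and 0.42, 0.76 and 0.65 on the WT arrays. Its copy rpl401 read −0.20, −0.20 and −0.16 on the Δrad3 arrays and 0.28, 0.21 and 0.40 on the WT arrays. In both copies every Δrad3 array lay below every WT array, by 0.48 on average in each (limma adjusted p = 0.74 for both). The gene rpl2501, for uL23, read 0.19, 0.23 and 0.12 on the Δrad3 arrays and 0.40, 0.61 and 0.55 on the WT arrays, while its copy rpl2502 was at −0.18 in Δrad3 and 0.02 in WT.

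The other 3 were rpl4102 (eL41, a very small basic protein at the subunit interface), rpl3802 (eL38) and rps3 (uS3, at the mRNA entry channel). The single probe of rpl4102 read 0.32, 0.14 and −0.15 on the Δrad3 arrays and 0.59, 0.53 and 0.86 on the WT arrays. The mean of rpl3802 came to 0.35, 0.40 and 0.30 on the Δrad3 arrays and 0.41, 0.69 and 0.58 on the WT arrays, and that of rps3 came to 0.11, 0.20 and 0.37 on the Δrad3 arrays and 0.49, 0.62 and 0.53 on the WT arrays. The 7 genes were picked by their WT values, so their lower Δrad3 values say nothing further about the strains. Both rpl3802 and rps3 lie within 1 kb of a gene for a tRNA, rRNA, snRNA or snoRNA, as do 9 other members, and the part of these neighbours in the values was not tested.

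**Figure D5:**
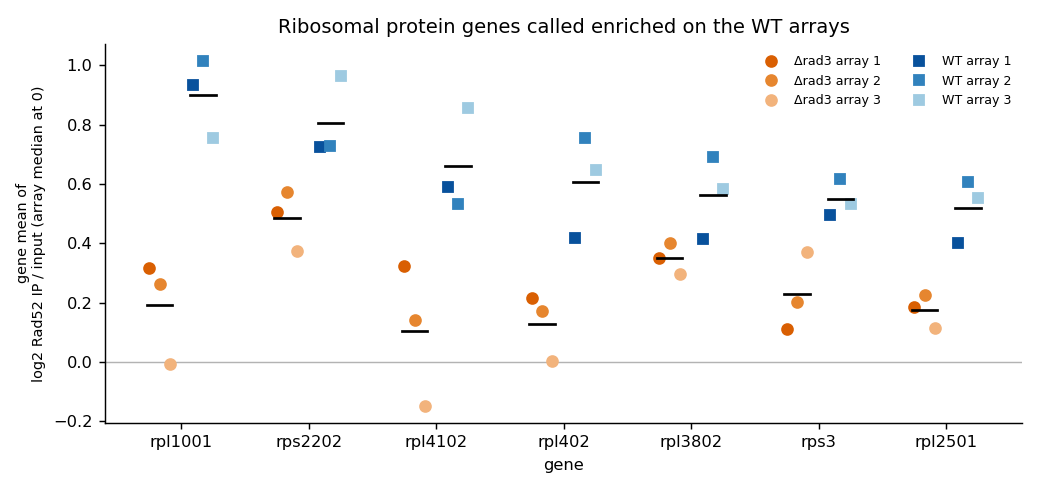
Gene means of log2 IP/input (vertical axis) on each array for the 7 ribosomal protein genes called enriched in WT, Δrad3 arrays as orange circles left of WT arrays as blue squares, with bars at the mean of 3 arrays. The genes were picked by their WT values, which lie between 0.40 and 1.01, and the Δrad3 values lie between −0.15 and 0.57.

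Between the strains no ribosomal protein gene was called. The limma fit gave 0 higher (background 0.0%) and 0 lower (background 0.0%) at an adjusted p under 0.05, and 0 of the 480 segments (background 0.0%). At an unadjusted p under 0.05, 19 of the 119 genes were lower in Δrad3 (background 2.45%) and 1 was higher (background 3.69%). Of the 119 downstream segments 11 were lower (background 2.55%) and 0 higher (background 3.16%) at that p. Gene values were lower in Δrad3 at 99 of 119 genes and at 2118 of 4161 other coding genes. The median difference was −0.20 over the members, against −0.01 over the other coding genes. All 3 Δrad3 arrays lay below all 3 WT arrays in 22 of the 115 genes measured on every array (19.1%, background 7.45%), and above in 1 (0.87%, background 5.39%), rpl3602. Downstream the strains stood apart in this way in 22 of 116 segments (19.0%, background 6.67%), and in the 3′ part in 13 of 77 (16.9%, background 6.26%). These counts include the array labelled WT replicate 2, and so does the WT mean that follows. The mean over members minus the mean over other coding genes was 0.02 ± 0.03 on the Δrad3 arrays and 0.23 ± 0.08 on the WT arrays (SD, n = 3 arrays each).

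That gap between the arrays labelled Δrad3 and WT had the same sign on each slide. On slide 2 the array labelled WT also had low input over rad3, with 24 of 33 probes not well above background. The gap on that slide may therefore not be one between the strains. For whole genes the gap was −0.20, −0.25 and −0.16 on slides 1, 2 and 3, and −0.17 over all slides without the array labelled WT replicate 2. For the downstream 500 bp it was −0.20, −0.38 and −0.20, and −0.20 without that array. The gap was not confined to the 3′ side. In the 5′ part it was −0.241, −0.335 and −0.219, and −0.21 without that array. In the 500 bp upstream it was −0.139, −0.244 and −0.161, and −0.125 without that array. With normexp background correction in place of the deposited processed signals, the median gene difference was −0.08 instead of −0.20, with the A+T regression it was −0.12, and under normexp no member gene or segment was called in WT. The size of the gap therefore depended on the treatment of background and of base composition. On slides 1 and 2 the strain, the protocol text in the labels and the signal over background cannot be told apart. Both arrays of slide 3 carry the same protocol text, and the gap there is from 1 pair of arrays. The strain and the signal over background cannot be told apart on that slide either. Median input over local background on slides 1, 2 and 3 was 9.58, 12.89 and 6.53 on the Δrad3 arrays. On the WT arrays it was 20.01, 14.72 and 5.04, so WT was the lower of the pair on slide 3 only. The part of this signal in the gap was not tested.

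The smallest p-values for lower values in Δrad3 belonged to rpl1001, rps2402, rpl401, rps1402 and rpl4102. Over rps2402 (eS24) the values were 0.17, −0.38 and −0.20 on the Δrad3 arrays and 0.56, 0.41 and 0.77 on the WT arrays, a difference of −0.72 (limma adjusted p = 0.74). Over rps1402 (uS11) they were −0.38, −0.44 and −1.11 on the Δrad3 arrays and 0.31, −0.04 and −0.11 on the WT arrays, a difference of −0.70 (limma adjusted p = 0.74), which was 0.00 under normexp. The copy rps1401 differed by −0.23. In the other direction, rpl3602 (eL36) read 0.06, 0.22 and 0.41 on the Δrad3 arrays and 0.00, −0.69 and −0.07 on the WT arrays (limma adjusted p = 0.745). Its value in WT was low chiefly on the array labelled WT replicate 2. The other 4 with the smallest p for higher values, rpl2101, rps2201, rps1802 and rps502, all had overlapping strains.

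Among the stalk genes, rpp103 stood apart. It read 0.87, 1.18 and 1.56 on the Δrad3 arrays and 0.35, 2.25 and 0.60 on the WT arrays, and its downstream segment was called in WT (limma adjusted p = 0.0345). The gene lies 44.6 kb from the end of chromosome III, and 69 probes within 10 kb outside it averaged 0.63, 1.20 and 1.33 on the Δrad3 arrays and 0.04, 2.03 and −0.03 on the WT arrays. The raised level thus spanned the whole neighbourhood on the Δrad3 arrays and the array labelled WT replicate 2, which lay far above WT arrays 1 and 3. On WT arrays 1 and 3 the neighbourhood was near 0, while the probe 11.5 bp past the end read 0.78 and 1.47. The paralogues of rpp103 had no such level: rpp101 averaged −0.08 in Δrad3 and −0.21 in WT, and rpp102 0.18 in Δrad3 and 0.40 in WT. The P0 gene rpp0 averaged 0.28 in Δrad3 and 0.40 in WT, and the P2 genes rpp201 and rpp202 averaged 0.15 and 0.39 in Δrad3 against 0.63 and 0.62 in WT. None of the 6 stalk genes was called over the whole gene.

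The lowest WT values of members measured on all arrays belonged to rps502, rpl1603, rpl1101, rpl2101 and rpl2301. The gene rpl1101, for uL5, read 0.03, 0.21 and −0.91 on the Δrad3 arrays and 0.16, −0.64 and −0.56 on the WT arrays, so the spread within each strain was wider than the gap between them. Its copy rpl1102, with an identical protein, read −0.24, 0.30 and 0.19 on the Δrad3 arrays and 0.35, 0.63 and 0.34 on the WT arrays. In rpl1603 (uL13), with 11 probes the best covered member, all 6 arrays were below 0, at −0.17, −0.29 and −0.24 on the Δrad3 arrays and −0.08, −0.81 and −0.18 on the WT arrays. Over all 45 copy pairs the WT values of the partners differed by a median of 0.34.

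The downstream medians were also split by other properties of the genes, and no test of these splits was run. The 73 genes with a copy at 90% protein identity or more had 0.20 in Δrad3 and 0.39 in WT, and the 46 without one had 0.29 in Δrad3 and 0.58 in WT. The 6 stalk genes had −0.01 in Δrad3 and 0.51 in WT. The large subunit genes had a downstream median of 0.23 in Δrad3 and 0.50 in WT, and the small subunit genes 0.19 in Δrad3 and 0.53 in WT. The 63 genes with an intron had 0.20 in Δrad3 and 0.51 in WT. Without an intron, the 56 measured genes had 0.26 in Δrad3 and 0.51 in WT. The next gene on the 3′ side can run towards the member or in the same direction. Genes with a convergent neighbour downstream had medians of 0.21 in Δrad3 and 0.52 in WT, and those with a tandem neighbour 0.23 in Δrad3 and 0.47 in WT. Among other coding genes the convergent ones had 0.09 in Δrad3 and 0.14 in WT. The tandem ones had 0.03 in Δrad3 and −0.01 in WT, so ribosomal protein genes were above them in both arrangements. Promoters were split by the HomolD box. Genes with a HomolD box stood downstream at 0.21 in Δrad3 and 0.53 in WT, and those without at 0.22 in Δrad3 and 0.46 in WT. Their upstream medians were −0.07 in Δrad3 and −0.06 in WT with the box, and −0.04 in Δrad3 and −0.09 in WT without it. Across the members, downstream values of the 2 strains correlated at r = 0.627 (n = 118 genes, which share arrays, probes and base composition), as a description across genes that are not independent.

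A ratio can move with either channel, so both were read. In the downstream segments the probe input was above the array median by 0.18, 0.37 and 0.01 on the Δrad3 arrays and by 0.28, 0.41 and 0.02 on the WT arrays. The IP was above it by 0.48, 0.55 and 0.06 on the Δrad3 arrays and by 0.76, 1.00 and 0.30 on the WT arrays. Downstream the IP exceeded the input, and the input was itself at or above its median, on every array. In the 5′ part the input of the members was at −0.33, −0.55 and 0.06 on the Δrad3 arrays and −0.36, −0.48 and 0.10 on the WT arrays. The IP there was at −0.49, −0.65 and −0.07 on the Δrad3 arrays and −0.32, −0.25 and 0.17 on the WT arrays. Both channels were thus below the array median on slides 1 and 2, and on slide 3 the input was slightly above it in both strains.

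Other genes of protein synthesis differed in how far they showed the same downstream level. The 6 measured elongation factor genes, whose products bring tRNA to the ribosome or help it move and recycle, had a downstream median of 0.58 in Δrad3 and 1.01 in WT, with 0 called in Δrad3 and 5 in WT. The 45 measured genes for mitochondrial ribosomal proteins stood at 0.03 in Δrad3 and 0.02 in WT (0 called in Δrad3 and 2 in WT), and the 22 translation initiation factor genes at 0.14 in Δrad3 and 0.16 in WT (none called in either). The 6 RNA polymerase I subunit genes had 0.23 in Δrad3 and −0.04 in WT, and 9 regulators of ribosomal protein genes −0.04 in Δrad3 and −0.25 in WT, again with none called. Outside protein synthesis, 13 glycolysis genes, which are also strongly transcribed, had 0.56 in Δrad3 and 0.88 in WT, with 0 called in Δrad3 and 7 in WT. Over all coding genes, 0.609% of downstream segments were called in Δrad3 and 5.17% in WT. The downstream probe of rpl35A01 also lies past the end of the elongation factor gene eft202. That probe can therefore count both for the ribosomal protein genes and for the elongation factor genes. No test between these lists was run. Transcription was not measured in these samples, and its part in the values was not tested.

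The 2 genes that the symbol rule also found had no ribosomal role in the annotation. The gene rpp1 read 0.15, 0.36 and 0.84 on the Δrad3 arrays and −0.06, 0.60 and 0.76 on the WT arrays, and rpp21 read −0.13, −0.02 and −0.17 on the Δrad3 arrays and −0.26, 0.46 and 0.04 on the WT arrays. Both overlapped between the strains, and downstream their WT values were below 0.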

How the data were processed

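Per the labels and the submitters' processing notes, 6 tiling arrays with 2 colours were scanned and the authors deposited their spot tables from Agilent Feature Extraction 10.7.3.1. The intensity columns used are the deposited processed signals, on a linear scale, background-subtracted and dye-normalized within the array per the file headers. The headers name a ChIP protocol on slide 2 and a CGH protocol on slides 1 and 3. Flagged spots numbered 3535 on Δrad3 array 2 and 4 to 464 on the other arrays. The part of these differences in the values was not tested. The deposited log10 ratio, red over green per the file headers, was not used beyond a check of its direction. Here log2 of 555 (IP) over 647 (input) was computed and centred on the median of each array, without loess or quantile normalization. Spots marked as outliers and control spots were left out, and 42659 of 42707 probes had input well above background on at least 3 arrays and were kept. With 3 arrays a strain, their number limits the precision. The file build is Spombe:NCBI:Feb2002. Genes are from RefSeq ASM294v3, which 106 of the 107 windows of probes used matched without a shift, and the last with one of 10 bp (126 windows were compared, the rest on the part of chromosome I left out).

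A gene's value is the mean of the probes overlapping it, and a segment's that of the probes centred in it. Both strains entered 1 limma fit (R 4.3.3, limma 3.58.1), adjusted by Benjamini-Hochberg over 4280 genes, 20657 segments or 3904 genes with both end parts. The fit was run on simulated data with independent noise, the same spread for all genes and no shared slides. These settings are unlike the arrays, so the simulation does not show how large a strain difference would be called here. Sequences were compared with BLAST+ 2.17.0. The members, gene lists, tests and rules were chosen with earlier results of these data known. Genes named are the stalk genes, those highest and lowest in each strain, all that passed, those with the smallest p for the strain difference or the largest 3′ minus 5′ difference, and their copies. Segments named by their own value were chosen after their values were seen. The numbers, which mark a shared slide and scan day, were taken to pair the arrays. Deviations from the strain means correlated at 0.529, 0.11 and 0.231 between same-numbered arrays 1, 2 and 3 (4269 genes). Between the other pairs they correlated at −0.43 to 0.177. The highest of those, Δrad3 array 3 with WT array 2, was above the value of the same-numbered arrays 2. The block takes slide variation out of the error and not out of a strain's mean. Other alternatives were normexp background correction, scaling of arrays, variance settings, probe filters, an A+T regression and leaving out each array. Chromosome I beyond position 3700000, where the coordinates of the file build and the annotation are shifted, was not used here. The sequence after rpl35A01 is not reported here.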

Additional observations from a re-analysis of the deposited data

How the results depend on the processing

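Medians kept their sign under most alternatives, while counts of calls did not keep their size, and in the counts that follow members are ribosomal protein genes. Shares over all coding genes moved with the setting too. For downstream segments called in Δrad3 the share was 0.609% in the main fit and 4.33% with the slide as a block. With the block and without the array labelled WT replicate 2 it was 7.94%. Where no such share is given, a count of members cannot be read against the other genes. With the slide as a replicate block, 1 gene was called in Δrad3 and 19 in WT, 9 segments in Δrad3 and 94 in WT, 4 downstream segments in Δrad3 and 54 in WT, and 8 genes had a higher 3′ part. The block changed no call between the strains. With normexp, 0 genes, 0 segments and 0 downstream segments were called in WT, 3 segments and 2 downstream segments in Δrad3, and 0 genes had a higher 3′ part. Its medians were 0.11 over genes in WT, −0.084 for the strain difference and 0.24 downstream in WT, and it turned the difference of rpl2101 to −0.32, rps502 to −0.47 and rps1402 to 0.002. With arrays scaled to 1 spread, 2 genes, 7 segments and 4 downstream segments were called in Δrad3 and 5 genes had a higher 3′ part. With a trended, robust variance 0 genes, 0 segments and 0 downstream segments were called in WT, 0 segments in Δrad3 and 0 genes for the 3′ part. With at least 2 probes, 0 segments were called in Δrad3, 20 in WT and 1 gene for the 3′ part, and with outlier spots kept 5 genes for the 3′ part. With the A+T regression the medians in Δrad3 were 0.094 over genes and 0.089 downstream, the strain difference −0.12, and 0 segments were called in Δrad3. At a mean of at least 1, 0 genes were called in WT. Without members that have a copy at 90% identity, 4 genes were called in WT, and the Δrad3 median was 0.086.

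Leaving out 1 array at a time gave 0 to 1 genes called in Δrad3 and 1 to 19 in WT, 0 to 5 segments in Δrad3 and 3 to 40 in WT, 0 to 1 downstream segments in Δrad3 and 2 to 21 in WT, and 0 to 2 genes with a higher 3′ part. The lowest gene count, 1, was without WT array 3, the highest, 19, without WT array 1, and the lowest segment counts were without the array labelled WT replicate 2. The gene medians were −0.003 to 0.026 in Δrad3 and 0.17 to 0.29 in WT. With the block and without that array, an alternative chosen after seeing the data, 2 genes, 22 segments and 14 downstream segments were called in Δrad3, 7 segments and 5 downstream segments in WT, and the 3′ part was called higher in 10 genes and lower in 1. The cause of these changes was not tested.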

Other observations

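The downstream level of ribosomal protein genes was seen on each chromosome. The 42 genes on chromosome I had a downstream median of 0.22 in Δrad3 and 0.38 in WT, the 50 on chromosome II 0.19 in Δrad3 and 0.51 in WT, and the 27 on chromosome III 0.27 in Δrad3 and 0.55 in WT. The 11 genes within 1 kb of a gene for a tRNA, rRNA, snRNA or snoRNA stood higher, at 0.32 in Δrad3 and 0.78 in WT. The 108 measured genes farther from such a gene were at 0.20 in Δrad3 and 0.50 in WT, and held 18 of the 22 downstream calls in WT.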
